A study of Mus musculus with 114 samples.

Results

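Perigonadal adipocytes of mice held on a high fat diet (HFD) for 34 weeks were compared with those of mice held on it for 8 weeks. Each group held 6 mice, so the comparison rests on 12 of the 38 mice in the deposited table, taken as the columns that carry these diet and time names. All were male C57BL/6 mice (C57BL/6J in the study's methods) put on their diet at 6 weeks of age. The 34-week group was therefore both older and longer on HFD, and age, time on diet and harvest cohort cannot be told apart within the HFD arm. Mice on chow diet (CD) for 8 weeks (6 mice) and 34 weeks (8 mice) served as the comparison across the same interval of age, and 6 HFD mice at 20 weeks gave a time between. The study's methods name alternative control diets without linking either to a group of CD mice. By the same methods, mice were fasted before harvest. Cells came from the epididymal pad by collagenase digestion and flotation, so the fraction was enriched for adipocytes but was not sorted. Each mouse's RNA was sequenced as 3 technical libraries that were merged into 1 column.

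White adipocytes store triglyceride in a lipid droplet, release fatty acids by lipolysis and secrete adipokines such as adiponectin and leptin. In the perigonadal pad of obese mice macrophages gather around dying adipocytes, take up lipid and digest it in lysosomes. The pad is also held in a collagen-rich matrix, with type VI collagen as an abundant pericellular component and type IV collagen and laminins in the basement membrane around each fat cell.

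Ranges quoted for a gene did not overlap between the groups unless an overlap is stated. Expression was given as CPM, the reads of a gene scaled to a fixed library total, and changes are log2 fold changes on log2(CPM + 1), 34 minus 8 weeks, ± standard error, so that folds of low genes are understated. Reads assigned to genes ran from 13201234 to 15480388 per mouse at 8 weeks and from 10714545 to 12271651 at 34 weeks, without overlap, and 1 read was worth 0.0646 to 0.0933 CPM. Thinning all mice to the lowest total moved none of the 91 genes chosen by the naming rule across the threshold. The defining adipocyte genes were abundant in every mouse. Adipoq, which encodes adiponectin, ranged from 3959.5 to 6148 CPM (median 4905) at 8 weeks and from 2068 to 5297 CPM (median 2998) at 34 weeks, with overlap. The summed level of 26 adipocyte identity genes was 81231 to 107552 CPM at 8 weeks and 44951 to 83238 CPM at 34 weeks, and the ranges overlapped. A list of 20 core macrophage genes summed to 1416 to 4826 CPM at 8 weeks and 7801 to 23386 CPM at 34 weeks, with no overlap, and its share in the other differences cannot be told apart from time on diet. In such bulk libraries fewer cells of a type and less RNA per cell cannot be told apart.

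Of 10479 genes with a mean log2(CPM + 1) above 2, 5024 (47.9%) passed the limma test at a Benjamini-Hochberg adjusted p of 0.05. At 34 weeks 3167 (30.2%) were higher and 1857 (17.7%) lower. These shares over all genes stand beside the counts of every gene list below, which are descriptions. The 34-week mice lay entirely above the 8-week mice for 1757 genes (16.8%) and entirely below them for 782 (7.46%). Of the genes called, 219 higher ones had an 8-week mean, and 76 lower ones a 34-week mean, that alone would not have passed the filter. The filter fixed the direction of these genes, which are also counted in the gene lists that follow. A change of at least 2-fold was found for 1069 higher and 356 lower genes. The median change over all genes tested was 0.07. The split between directions depended on scaling: 63.0% of called genes were higher on CPM and 47.2% after scaling by trimmed mean of M values (TMM), which moved the median of all genes by -0.12 to -0.05. The mean log2 level of the core macrophage genes was 5.46 to 7.11 at 8 weeks and 7.74 to 9.26 at 34 weeks. With that mean as a covariate 10 genes passed the test (1005 had an unadjusted p below 0.05), 8 of which were called without it. Since the covariate did not overlap between the groups, that fit rests on its slope within groups.

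**Figure D1:**
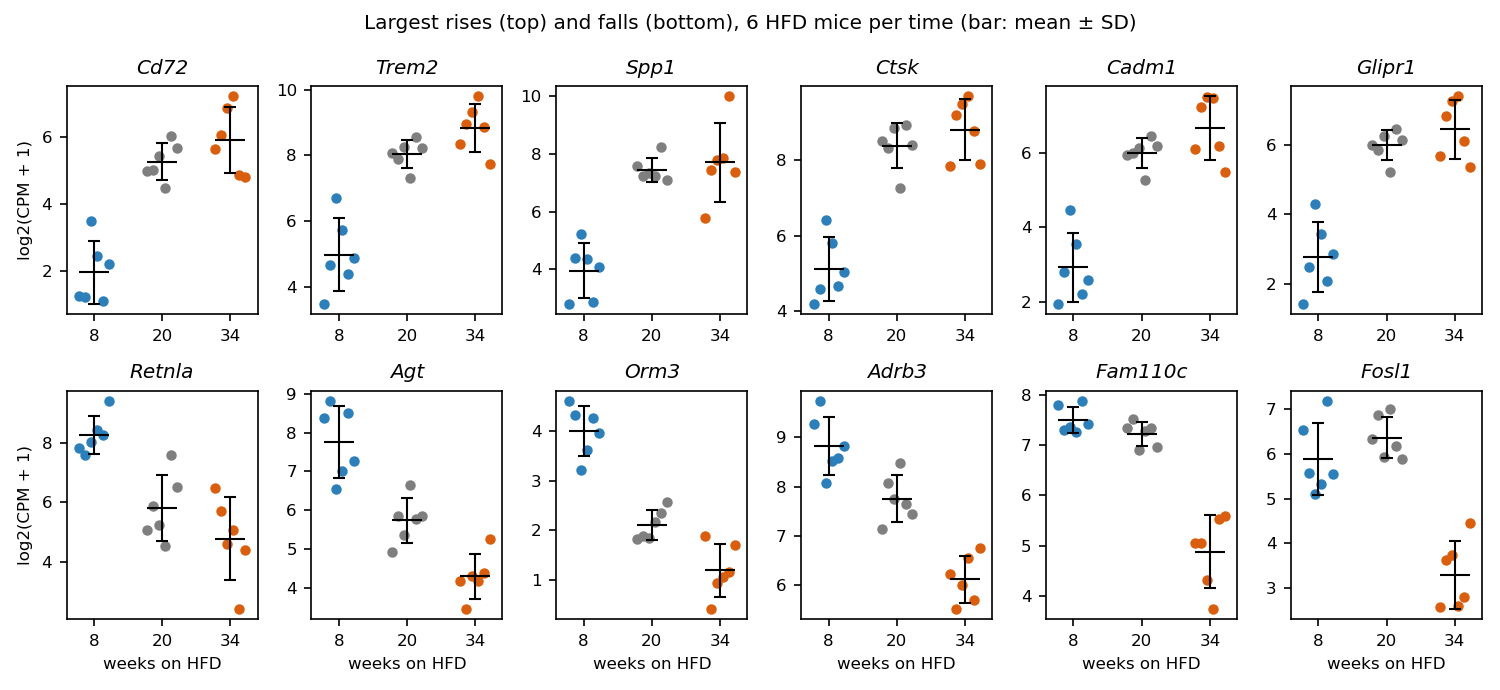
Levels of the 6 genes with the largest rise (top) and the 6 with the largest fall (bottom) in HFD mice at 8, 20 and 34 weeks, as log2(CPM + 1); points are mice (6 per time) and bars the mean ± SD. The genes were picked among those whose 34-week and 8-week mice do not overlap. Among the falls Agt, Adrb3, Fam110c and Fosl1 overlap the 8-week mice at 20 weeks.

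The largest rises were led by genes of myeloid cells. Cd72, an inhibitory C-type lectin receptor of B and myeloid cells (chr4:43447724-43455102, GRCm38), ranged from 1.18 to 10.3 CPM (median 2.52) at 8 weeks and from 27.2 to 149 CPM (median 58.1) at 34 weeks (log2 fold change 3.96 ± 0.49, adjusted p = 0.000162). Trem2, the lipid-sensing receptor of lipid-associated macrophages (chr17:48346401-48352276), ranged from 10.1 to 102 CPM (median 26.3) at 8 weeks and from 212 to 893 CPM (median 483) at 34 weeks (log2 fold change 3.88 ± 0.48, adjusted p = 0.000157). Both were picked, like the other genes named here, among genes whose 34-week and 8-week mice did not overlap. Spp1, which encodes the secreted phosphoprotein osteopontin (chr5:104435111-104441053), ranged from 5.95 to 36 CPM (median 17.7) at 8 weeks and from 53.8 to 1025 CPM (median 197) at 34 weeks (log2 fold change 3.76 ± 0.59, adjusted p = 0.000391). Its 34-week maximum came from a mouse that stood far above the other 5. Ctsk, a lysosomal collagen-degrading protease (chr3:95499210-95509387), ranged from 17.3 to 84.8 CPM (median 28.1) at 8 weeks and from 229 to 829 CPM (median 512) at 34 weeks (log2 fold change 3.70 ± 0.42, adjusted p = 0.000113). Cadm1, an immunoglobulin-type adhesion molecule (chr9:47530170-47862280), ranged from 2.87 to 21 CPM (median 5.51) at 8 weeks and from 43.9 to 178 CPM (median 111) at 34 weeks (log2 fold change 3.73 ± 0.45, adjusted p = 0.000153). Glipr1 (chr10:111985448-112002639) ranged from 1.67 to 18.5 CPM (median 5.42) at 8 weeks and from 40.3 to 168 CPM (median 90.8) at 34 weeks (log2 fold change 3.69 ± 0.47, adjusted p = 0.000169). That the groups were apart for all 6 was thus set by the choice. At 20 weeks, which the choice did not use, every mouse also stood above every 8-week mouse. Medians at 20 weeks were 37.1 CPM for Cd72, 283 CPM for Trem2 and 352 CPM for Ctsk.

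The largest falls came from macrophage, hormone and receptor genes. Retnla, which encodes a resistin-like protein made by alternatively activated macrophages (chr16:48842609-48844461), ranged from 193 to 673 CPM (median 280.3) at 8 weeks and from 4.36 to 88.7 CPM (median 27.8) at 34 weeks (log2 fold change -3.47 ± 0.55, adjusted p = 0.000382). Agt, the angiotensinogen gene (chr8:124556587-124569706), ranged from 92 to 446 CPM (median 242) at 8 weeks and from 10.1 to 37.2 CPM (median 18.1) at 34 weeks (log2 fold change -3.45 ± 0.39, adjusted p = 0.000114). For both, as the choice of genes required, the lowest 8-week mouse stood above the highest 34-week mouse. Adrb3, the adrenergic receptor through which catecholamines start lipolysis in mouse fat (chr8:27225776-27230845), ranged from 267 to 853 CPM (median 416) at 8 weeks and from 44.7 to 107 CPM (median 68) at 34 weeks (log2 fold change -2.71 ± 0.28, adjusted p = 9.09e-05). Orm3, an acute phase orosomucoid gene (chr4:63356069-63359506), ranged from 8.33 to 23.3 CPM (median 16.4) at 8 weeks and from 0.343 to 2.71 CPM (median 1.16) at 34 weeks (log2 fold change -2.80 ± 0.28, adjusted p = 8.51e-05). Reads may be split among the Orm family, and Orm1 and Orm2 fell as well (-0.96 and -1.32). Orm3 and Orm2 passed the filter only through their 8-week values, so their direction was fixed by it. Fam110c (chr12:31073968-31079940) ranged from 153 to 234 CPM (median 168) at 8 weeks and from 12.4 to 46.9 CPM (median 32.2) at 34 weeks (log2 fold change -2.63 ± 0.28, adjusted p = 9.09e-05). Fosl1, an AP-1 subunit (chr19:5447698-5455938), ranged from 33.3 to 144 CPM (median 46.1) at 8 weeks and from 4.95 to 20.9 CPM (median 8.65) at 34 weeks (log2 fold change -2.58 ± 0.40, adjusted p = 0.00035). The 6 were picked among genes without overlap, so no 34-week mouse reached the 8-week range. At 20 weeks Agt, Adrb3, Fam110c and Fosl1 still overlapped that range. Agt then ranged from 29.3 to 100.4 CPM (median 55.4) and Adrb3 from 139 to 357 CPM (median 205). Fam110c ranged from 119 to 183 CPM (median 158) and Fosl1 from 58.5 to 126 CPM (median 75.4).

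Macrophage genes divided by subtype. Of 20 core macrophage genes 19 rose, none fell and all 19 were free of overlap, with a list median of 2.65. Cd68, a lysosomal glycoprotein of macrophages, ranged from 49.4 to 222 CPM (median 102) at 8 weeks and from 382 to 1462 CPM (median 1063) at 34 weeks (log2 fold change 3.03 ± 0.39, adjusted p = 0.000167). Mertk, an efferocytosis receptor, was the member not called (log2 fold change 0.52 ± 0.25, adjusted p = 0.108). Of 20 genes of lipid-associated macrophages 16 rose and none fell (median 2.45); the 4 not called were Cd36, Acp5, Fabp4 and Lpl, of which Cd36, Fabp4 and Lpl are also adipocyte genes. Gpnmb, a glycoprotein of lipid-loaded macrophages, had a change of 3.44 ± 0.51, Itgax, which encodes CD11c, 3.45 ± 0.40, and Cd9, a tetraspanin, 3.05 ± 0.36. With the macrophage covariate the medians of these lists were 0.09 and 0.14. The first was fixed near 0 in advance, since the covariate is the mean of those same 20 core genes.

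Genes of resident macrophages went both ways. Of 13 tested, 5 rose and 5 fell, with a median of 0.09 on CPM and -0.04 after TMM scaling. Vsig4, a complement receptor of tissue macrophages, ranged from 1 to 1.96 CPM (median 1.63) at 8 weeks and from 5.13 to 18.8 CPM (median 15.5) at 34 weeks (log2 fold change 2.50 ± 0.26, adjusted p = 9.09e-05). Vsig4 passed the filter only through its 34-week values, which fixed its direction. Pf4, Folr2, Mrc1 and Clec10a also rose, by 2.21, 2.09, 1.36 and 1.40. Besides Retnla, Cd163, the haemoglobin scavenger receptor, fell from a range of 46.6 to 71.8 CPM (median 62.8) to one of 12.7 to 35.7 CPM (median 20.8) (log2 fold change -1.54 ± 0.24, adjusted p = 0.000341). Lyve1, a hyaluronan receptor of lymphatic endothelium and of perivascular macrophages, ranged from 24.6 to 48.8 CPM (median 29.9) at 8 weeks and from 3.12 to 14.7 CPM (median 5.88) at 34 weeks (log2 fold change -2.17 ± 0.27, adjusted p = 0.000163). Cd209f, a C-type lectin, had a change of -2.06 ± 0.39 and F13a1, coagulation factor XIII A, -0.59 ± 0.20. Lyve1 was also the 1 of 19 tested endothelial genes that was called, and the endothelial list had a median of -0.02. In the fit with the macrophage covariate Cd163 was still lower (-2.81, adjusted p = 0.0243).

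**Figure D2:**
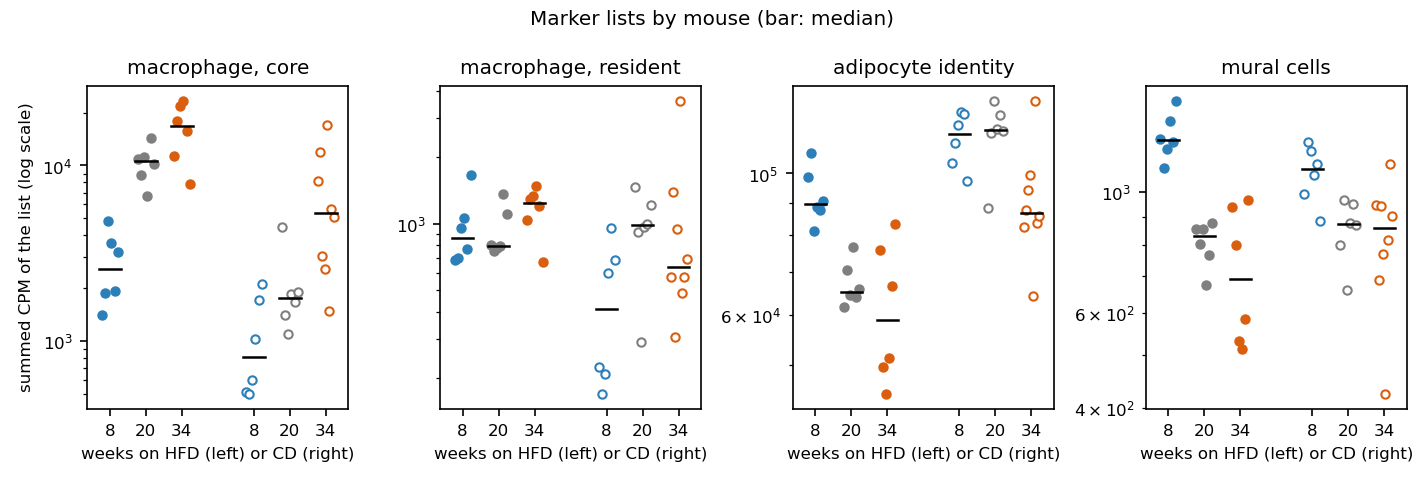
Summed CPM per mouse (log axis) of 4 marker lists at 8, 20 and 34 weeks of HFD (filled) or CD (open); bars are medians. Core macrophage genes in HFD mice rise from 1416 to 4826 CPM at 8 weeks to 7801 to 23386 CPM at 34 weeks with no overlap, whereas the resident macrophage sums overlap and adipocyte identity and mural cell sums run lower.

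Other immune lists differed in direction. All 7 MHC class II genes tested were higher (median 1.65), although 6 of them overlapped between groups; H2-DMb1, which loads peptides, ranged from 9.47 to 70.7 CPM (median 26.2) at 8 weeks and from 67.1 to 139.5 CPM (median 104) at 34 weeks (log2 fold change 1.92 ± 0.46, adjusted p = 0.00418), with 4 of the 6 older mice above all younger ones. Of 15 class I and peptide-loading genes 8 rose and none fell (median 0.63; 6 and 1 after TMM), led by H2-M3 (log2 fold change 1.94 ± 0.22, adjusted p = 0.000114). Of 29 chemokines and cytokines 15 rose and 4 fell (median 1.12). For 2 of the rises the filter was passed only through the 34-week values. For 1 of the falls, Ccl24, it was passed only through the 8-week values. Il10, an anti-inflammatory cytokine, ranged from 3.41 to 31.3 CPM (median 12.7) at 8 weeks and from 52.4 to 366 CPM (median 132) at 34 weeks (log2 fold change 3.23 ± 0.55, adjusted p = 0.000561). The falls were Csf1, the macrophage growth factor (log2 fold change -2.51 ± 0.53, adjusted p = 0.00198), and the chemokine genes Ccl24 (-1.03), Ccl7 (-0.82) and Ccl2 (-0.79). Csf1 ranged from 86.8 to 649 CPM (median 106) at 8 weeks and from 14.8 to 91 CPM (median 26.3) at 34 weeks, and 1 mouse of the 34-week group stood above the lowest 8-week mouse. Among 24 complement and acute phase genes 7 rose and 10 fell (median -0.49). The macrophage-made C1qa, C1qb and C1qc rose by 2.71, 2.70 and 2.81, while Agt, Saa3 (-2.52), Ptx3 (-2.35), C2 (-1.95) and Cfd, which encodes adipsin (-1.51), were among the falls. Among 24 interferon-stimulated genes 3 rose and 4 fell (median 0.02, -0.11 after TMM); Oas1a changed by 1.74 ± 0.26 and Ifit1 by -0.88 ± 0.19.

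Mast cell proteases were near the detection limit at 8 weeks and clearly present at 34 weeks. Cma1, mast cell chymase, ranged from 0 to 0.668 CPM (median 0.135) at 8 weeks and from 4.36 to 32.1 CPM (median 14.2) at 34 weeks (log2 fold change 3.56 ± 0.36, adjusted p = 8.8e-05), and the lowest 8-week mouse had no read. Mcpt4, a further chymase gene, ranged from 0.0757 to 0.711 CPM (median 0.341) at 8 weeks and from 4.6 to 28.8 CPM (median 14) at 34 weeks (log2 fold change 3.37 ± 0.36, adjusted p = 9.09e-05). Cpa3 and Tpsb2, below the filter on low values, reached at most 0.668 CPM each at 8 weeks and 17.6 and 25.9 CPM at 34 weeks. Of 5 genes tested on the list of neutrophils and mast cells 3 rose and none fell, and Kit (0.12) and the neutrophil gene S100a8 (-0.46) were not called. Cma1 and Mcpt4 passed the filter only through their 34-week values, so their direction was fixed by it and the count is a description. The whole list summed to 5.83 to 34.9 CPM at 8 weeks and 43.3 to 127 CPM at 34 weeks. Of 4 B cell genes Cd22, an inhibitory lectin (log2 fold change 3.10 ± 0.37, adjusted p = 0.000142), Sdc1 and Igkc rose and Ighm fell (log2 fold change -0.82 ± 0.32, adjusted p = 0.0461). Cd22 too passed the filter only through its 34-week values. Ighm lost its call without any 1 of 8 of the 12 mice (adjusted p 0.0142 to 0.104). None of 22 T and NK cell genes passed the filter, and these summed to 3.11 to 10.8 CPM at 8 weeks and 3.02 to 11.3 CPM at 34 weeks. Of 5 dendritic cell genes Wdfy4 (2.15) and Bst2 (0.67) rose, and after TMM 1 fell. The 3 erythroid and 5 mesothelial genes tested gave no call by limma, none of them with an unadjusted p below 0.05, and none by edgeR, with DESeq2 calling 1 mesothelial gene lower, and none of the 24 genes of epididymis and testis passed the filter, though they reached 179 CPM summed in 1 mouse at 8 weeks.

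Lysosomal genes rose nearly as a block. Of 46 tested 41 were higher and 1 lower, 35 of them higher with no overlap, and the median was 1.09 (0.04 with the macrophage covariate). Besides Ctsk and Cd68, Lgmn, an asparaginyl endopeptidase, ranged from 97.1 to 344 CPM (median 196) at 8 weeks and from 578 to 1579 CPM (median 1327) at 34 weeks (log2 fold change 2.61 ± 0.34, adjusted p = 0.000188). Ctsa, the protective protein cathepsin A, ranged from 149 to 216 CPM (median 172) at 8 weeks and from 357 to 1033 CPM (median 759) at 34 weeks (log2 fold change 1.92 ± 0.23, adjusted p = 0.000142). Gla, alpha-galactosidase A, ranged from 25.8 to 52.3 CPM (median 36.7) at 8 weeks and from 52.2 to 155 CPM (median 127) at 34 weeks (log2 fold change 1.47 ± 0.27, adjusted p = 0.000969) and touched the 8-week range with 1 mouse. Gaa, the acid glucosidase that breaks down lysosomal glycogen, fell from a range of 166 to 227 CPM (median 185) to one of 139.8 to 159.7 CPM (median 151) (log2 fold change -0.33 ± 0.09, adjusted p = 0.00713). Lysosomal genes are known for a promoter element built on the letters GTCACGTG, bound by TFEB-type factors. These letters, on either strand, stood within 250 bases before a RefSeq start for 7 of 35 lysosomal genes with a promoter sequence, against 353 of 8408 tested genes (4.2%). Of the other forms searched, which overlap it, the full palindrome with AC added at the end was in 0 of the 35 (0.666% of tested genes), TCACGTGA in 5 (1.91%) and CACGTG in 10 (10.3%). The promoters of the 3 such genes with the largest rise are shown 5′ to 3′ on the gene's strand (GRCm38.p6, RefSeq), with the motif in capitals:
Lgmn (chr12:102439093-102439342, minus strand): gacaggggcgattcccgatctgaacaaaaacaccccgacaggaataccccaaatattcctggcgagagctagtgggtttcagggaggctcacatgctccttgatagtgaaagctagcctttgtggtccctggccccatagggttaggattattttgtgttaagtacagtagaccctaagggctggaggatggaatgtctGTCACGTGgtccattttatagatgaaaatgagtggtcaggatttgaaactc
Ctsa (chr2:164833523-164833772, plus strand): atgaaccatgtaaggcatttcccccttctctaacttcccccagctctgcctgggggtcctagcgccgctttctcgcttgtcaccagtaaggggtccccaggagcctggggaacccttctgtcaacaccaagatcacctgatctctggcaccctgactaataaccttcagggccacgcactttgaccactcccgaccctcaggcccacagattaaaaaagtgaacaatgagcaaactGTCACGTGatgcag
Gla (chrX:134601006-134601255, minus strand): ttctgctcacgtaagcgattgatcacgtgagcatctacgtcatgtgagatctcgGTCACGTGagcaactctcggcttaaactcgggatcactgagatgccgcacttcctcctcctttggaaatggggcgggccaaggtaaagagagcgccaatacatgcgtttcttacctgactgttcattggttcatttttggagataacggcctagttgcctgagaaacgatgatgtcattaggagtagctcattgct

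Cell cycle genes were higher. Of 27 listed 26 passed the filter and rose (median 1.77, 10 with no overlap), and the median was -0.63 with the macrophage covariate. For 9 of the 26, Tk1 included, the filter was passed only through the 34-week values, which fixed their direction. Tk1, the S phase thymidine kinase, ranged from 0.468 to 7.11 CPM (median 2.13) at 8 weeks and from 7.5 to 32.6 CPM (median 25.8) at 34 weeks (log2 fold change 2.81 ± 0.43, adjusted p = 0.000331). Cdk1, the mitotic kinase, ranged from 1.51 to 10.9 CPM (median 4.01) at 8 weeks and from 11.6 to 33.5 CPM (median 23.9) at 34 weeks (log2 fold change 2.24 ± 0.39, adjusted p = 0.000652). Mki67, a nuclear protein of cycling cells, ranged from 8.29 to 45.7 CPM (median 22.1) at 8 weeks and from 35.4 to 193 CPM (median 80.6) at 34 weeks (log2 fold change 1.98 ± 0.48, adjusted p = 0.00474), with overlap, and at 20 weeks from 116 to 191 CPM (median 161). Promoters of such genes often carry CCAAT boxes and a TTTGAA element. CCAAT, on either strand, was found for 17 of 20 proliferation genes with a promoter sequence and 40.1% of all tested genes, and TTTGAA for 6 of 20 and 12.4%. The letters of E2F-type sites TTTGGCGC and GGCGGGAA were in 2 and 0 of the 20, against 0.975% and 4.19%. The 2 genes with the largest rise that hold both are shown in the same way, with every match in capitals (reverse strand matches read ATTGG and TTCAAA):
Cdk1 (chr10:69352913-69353162, minus strand): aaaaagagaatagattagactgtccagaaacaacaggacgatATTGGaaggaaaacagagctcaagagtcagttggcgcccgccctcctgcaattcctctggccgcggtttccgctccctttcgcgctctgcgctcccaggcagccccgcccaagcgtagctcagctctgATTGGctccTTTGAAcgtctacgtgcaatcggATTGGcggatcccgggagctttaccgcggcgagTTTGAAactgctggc
Top2a (chr11:99024190-99024439, minus strand): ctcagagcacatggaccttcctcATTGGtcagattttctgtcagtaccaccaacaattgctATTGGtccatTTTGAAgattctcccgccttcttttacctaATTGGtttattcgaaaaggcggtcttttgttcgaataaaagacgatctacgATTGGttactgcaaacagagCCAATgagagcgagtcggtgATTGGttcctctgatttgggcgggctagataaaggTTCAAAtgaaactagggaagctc

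Most adipocyte genes were lower. Of 26 identity genes 16 fell and 1 rose, with a median of -0.64, and 5 of the falls were free of overlap. Besides Adrb3 these were Rbp4, the retinol carrier (log2 fold change -1.47 ± 0.26, adjusted p = 0.000704), Acvr1c, the activin receptor ALK7 (-1.03), Adipor2 (-0.89) and the lipid droplet coat gene Plin1. Plin1 ranged from 1401 to 1968 CPM (median 1471) at 8 weeks and from 666 to 1324 CPM (median 986) at 34 weeks (log2 fold change -0.71 ± 0.18, adjusted p = 0.00671). Retn, which encodes resistin (-1.73), and Cfd also fell. Pparg, the master regulator of adipocyte differentiation, was not called (log2 fold change -0.12 ± 0.14, adjusted p = 0.504), nor were Cd36 (0.11), Fabp4 (-0.31), Lep (-0.64) and Adipoq (log2 fold change -0.61 ± 0.26, adjusted p = 0.0703). Adipoq passed the test after TMM scaling (adjusted p = 0.0444) and without 34-week mouse 1 or 6 (lowest adjusted p 0.0236). The exception was Cidea, a lipid droplet protein typical of thermogenic fat, which rose from a range of 1.44 to 4.28 CPM (median 1.87) to one of 4.14 to 25.2 CPM (median 8.75), with overlap (log2 fold change 1.64 ± 0.33, adjusted p = 0.00167). Cidea passed the filter only through its 34-week values, so its direction was fixed by the filter. With the macrophage covariate the list median was 0.34, opposite in sign.

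Of 13 lipolysis genes 7 fell and 1 rose (median -0.55). Pnpla2, the first lipase of triglyceride breakdown, ranged from 1776 to 4023 CPM (median 2341) at 8 weeks and from 972 to 2063 CPM (median 1478) at 34 weeks (log2 fold change -0.76 ± 0.24, adjusted p = 0.0193), and 2 of the 6 older mice reached the 8-week range. Lipe, hormone-sensitive lipase, ranged from 1973 to 3084 CPM (median 2137) at 8 weeks and from 1074 to 2410.2 CPM (median 1482) at 34 weeks with overlap (log2 fold change -0.55 ± 0.21, adjusted p = 0.0428), a call lost without any 1 of 9 of the 12 mice (adjusted p 0.0115 to 0.092). Mgll, monoglyceride lipase, was not called (log2 fold change -0.44 ± 0.21, adjusted p = 0.108), but was after TMM scaling (adjusted p = 0.0491) and without 34-week mouse 1 (adjusted p = 0.0442). Pde3b, the phosphodiesterase by which insulin restrains lipolysis (-1.11), and Prkar2b, a regulatory subunit of protein kinase A (-0.86), fell. G0s2, an inhibitor of the first lipase, rose (log2 fold change 1.27 ± 0.38, adjusted p = 0.0149).

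Fat synthesis genes stood lowest. Of 19 lipogenic genes 10 fell and 1 rose, with the lowest median of any list (-0.94), and their summed level was 44472 to 67155 CPM at 8 weeks and 15419.7 to 40042 CPM at 34 weeks, without overlap. Scd1, stearoyl-CoA desaturase and the most abundant member, ranged from 34165 to 59654 CPM (median 50462) at 8 weeks and from 11582 to 32064 CPM (median 12775) at 34 weeks (log2 fold change -1.71 ± 0.30, adjusted p = 0.000697). Fasn, fatty acid synthase, ranged from 1802 to 4268 CPM (median 3752) at 8 weeks and from 668 to 2152 CPM (median 1232) at 34 weeks (log2 fold change -1.37 ± 0.31, adjusted p = 0.00317), and 1 34-week mouse reached the 8-week range. Acacb, the acetyl-CoA carboxylase of the mitochondrial surface, had the largest fall of the list (log2 fold change -1.82 ± 0.40, adjusted p = 0.00246). Acss2, acetyl-CoA synthetase, and Elovl6, a fatty acid elongase, fell by 1.44 and 1.03 on the log2 scale. Srebf1, the factor that drives the program, was not called (log2 fold change -0.01 ± 0.21, adjusted p = 0.965). Fads1, a desaturase of polyunsaturated fatty acids, rose (log2 fold change 0.54 ± 0.19, adjusted p = 0.0333), a call lost after TMM scaling (adjusted p = 0.0889) and without any 1 of 6 mice (adjusted p 0.00207 to 0.0754). Of 10 triglyceride synthesis genes 5 fell and none rose, and Gpam, which makes the first acylation step, ranged from 153 to 256 CPM (median 194) at 8 weeks and from 31 to 102 CPM (median 65.3) at 34 weeks (log2 fold change -1.68 ± 0.23, adjusted p = 0.000205).

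Insulin pathway genes were mixed, with 10 of 20 lower and 3 higher (median -0.37). The insulin receptor gene Insr (-0.90), Irs2 (-1.07), Irs1 (-0.61) and Slc2a4, which encodes GLUT4 (-0.57), fell. Akt1 (log2 fold change 0.94 ± 0.17, adjusted p = 0.000788) and Ptpn1, the phosphatase that turns off the receptor (0.74), rose with no overlap. Of 20 cholesterol synthesis genes Srebf2, their regulator, rose (log2 fold change 0.81 ± 0.13, adjusted p = 0.000472), while Sc5d and Pmvk fell (-0.53 and -0.59). The Pmvk call was lost without any 1 of 8 mice (adjusted p 0.0106 to 0.0936).

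Genes of the respiratory complexes gave few calls. None of 37 complex I genes passed the limma test (median -0.01), 0 had an unadjusted p below 0.05, edgeR and DESeq2 called 0, and TMM scaling 1. Of 39 genes of complexes II to V 1 rose, the ATP synthase subunit gene Atp5g1 (log2 fold change 0.63 ± 0.10, adjusted p = 0.00037). Fatty acid oxidation had 2 of 19 higher and 3 lower (1 and 3 after TMM), with Cpt1a, the entry step, higher (log2 fold change 0.88 ± 0.15, adjusted p = 0.000536) and Ppara lower (log2 fold change -0.72 ± 0.26, adjusted p = 0.0362; lost without any 1 of 4 mice, adjusted p 0.0233 to 0.0819). In the tricarboxylic acid cycle 3 of 23 fell and none rose, with Idh3a changed most (log2 fold change -0.54 ± 0.15, adjusted p = 0.0104). Branched-chain amino acid breakdown had 8 of 23 lower and 1 higher (median -0.38), with Aldh6a1 among the falls (log2 fold change -0.90 ± 0.23, adjusted p = 0.0066). The medians for complexes II to V (0.08), mitochondrial ribosomal proteins (0.08) and fatty acid oxidation (0.0013) turned negative after TMM scaling.

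Cytosolic ribosomal protein genes were mostly higher. Of 75 cytosolic ribosomal protein genes 68 rose and 1 fell (median 0.54, 0.41 with 49 higher after TMM), a narrow shift led by Rps27a (log2 fold change 0.83 ± 0.15, adjusted p = 0.000742) and Rpl3 (log2 fold change 0.83 ± 0.12, adjusted p = 0.00027). Rpl24 was the fall (log2 fold change -0.54 ± 0.17, adjusted p = 0.0221; lost without any 1 of 3 mice, adjusted p 0.0113 to 0.0533). Many of these genes have processed pseudogenes that could share their reads. Of 75 mitochondrial ribosomal protein genes 11 rose and 2 fell, on CPM; after TMM 1 rose and 3 fell. Mrpl19 (0.65) and Mrpl38 (-0.90) marked the ends. Of 37 proteasome genes 16 rose and none fell, 6 after TMM, and the immunoproteasome subunit gene Psmb8 (log2 fold change 1.14 ± 0.21, adjusted p = 0.000803) led them.

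**Figure D3:**
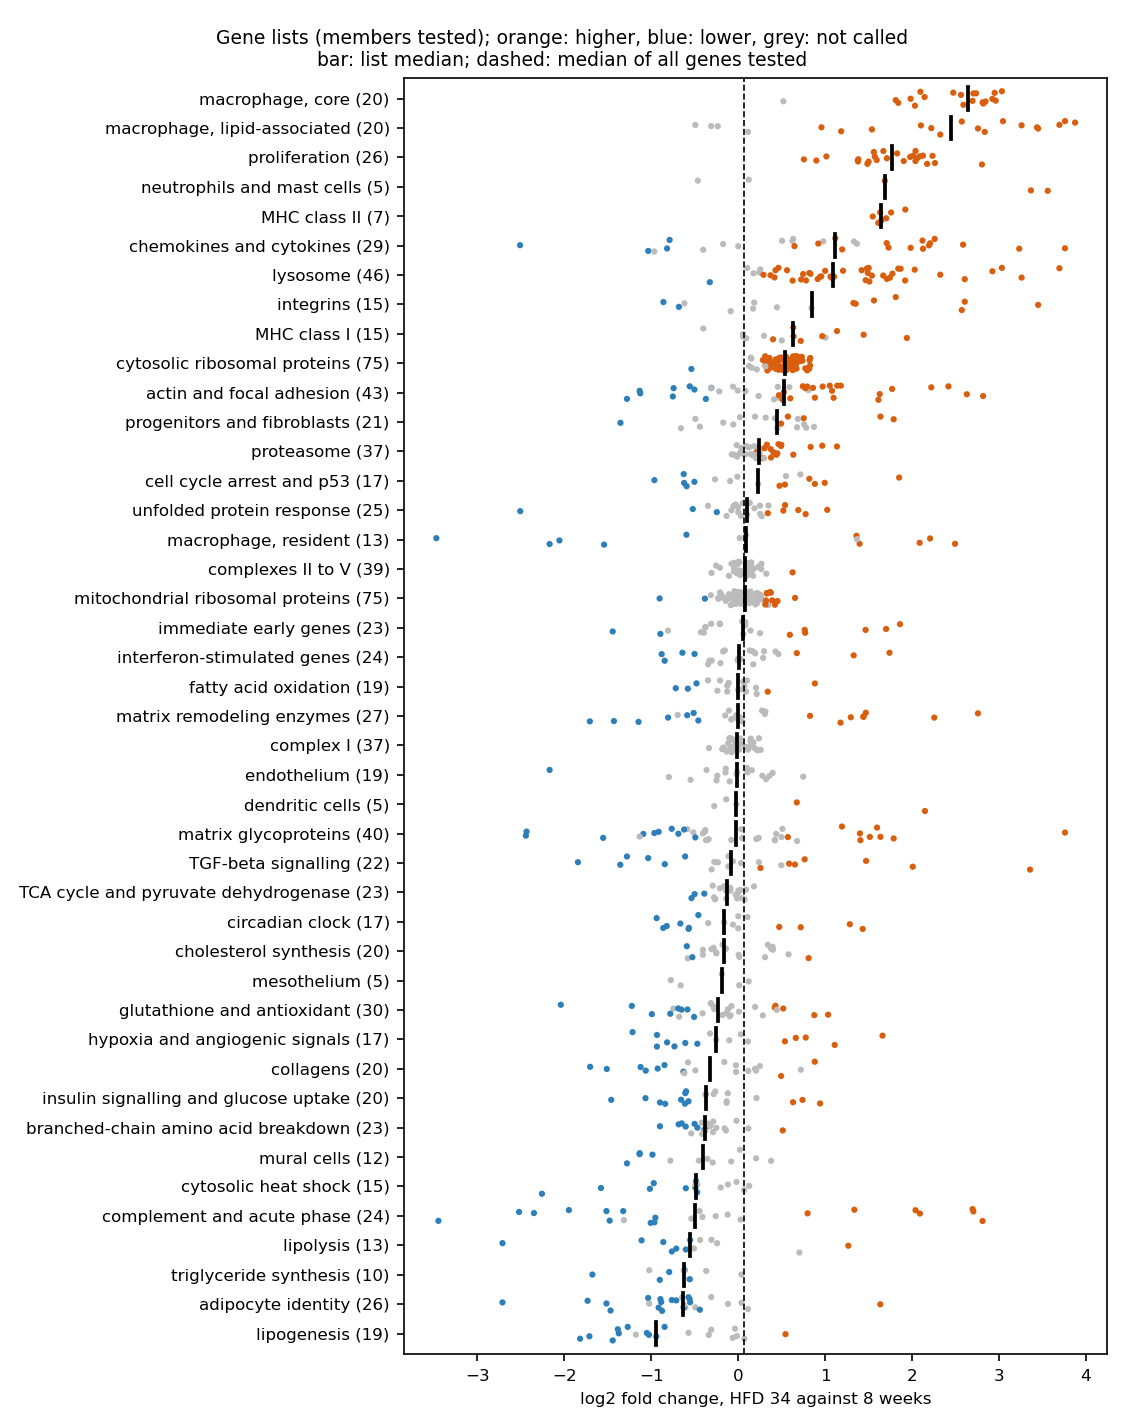
Log2 fold changes (34 against 8 weeks of HFD) of every tested member of each gene list with 5 or more tested genes, sorted by list median; orange points were called higher, blue lower, grey not called, bars are list medians and the dashed line is the median of all genes (0.07). Core macrophage genes stand at the top (median 2.65) and lipogenesis at the bottom (-0.94).

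Of the lists with no call in a direction, edgeR and DESeq2 gave none there either, with these exceptions. Both called 1 gene of lipid-associated macrophages lower, and DESeq2 called 1 lower gene each for the proteasome, complexes II to V and mesothelium.

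Collagen genes leaned lower. Of 20 tested 7 fell and 2 rose (median -0.33), and 9 and 1 after TMM. Col6a1, a chain of type VI collagen, ranged from 392 to 1382 CPM (median 899) at 8 weeks and from 189 to 308 CPM (median 275) at 34 weeks (log2 fold change -1.70 ± 0.29, adjusted p = 0.000605). Its partner Col6a2 ranged from 294 to 1409 CPM (median 837) at 8 weeks and from 240.2 to 450.1 CPM (median 366) at 34 weeks (log2 fold change -1.06 ± 0.37, adjusted p = 0.0299), with overlap. The third chain, Col6a3, was not called (log2 fold change 0.21 ± 0.33, adjusted p = 0.632). Col5a3, of type V collagen, ranged from 645 to 1369 CPM (median 1094) at 8 weeks and from 224 to 484 CPM (median 352) at 34 weeks (log2 fold change -1.51 ± 0.24, adjusted p = 0.000364). Col15a1 (-0.93), Col5a1 (-0.85), Col12a1 (-1.12) and Col18a1 (-0.63) also fell. Col1a2, of type I collagen (log2 fold change 0.49 ± 0.16, adjusted p = 0.0249), and Col4a5, a minor basement membrane chain (log2 fold change 0.88 ± 0.23, adjusted p = 0.00748), rose, whereas Col1a1 was not called (log2 fold change 0.19 ± 0.45, adjusted p = 0.746). Col4a1, the main basement membrane chain, was not called either (log2 fold change -0.58 ± 0.23, adjusted p = 0.0555), but was after TMM scaling (adjusted p = 0.0191) and without 34-week mouse 2 or 6 or 8-week mouse 2 (lowest adjusted p 0.0253). With the macrophage covariate the collagen median was -0.94.

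Among 40 matrix glycoproteins 9 rose and 10 fell (median -0.02). Basement membrane genes were among the falls, with Hspg2, which encodes perlecan (log2 fold change -1.55 ± 0.27, adjusted p = 0.000697), Nid1 (-1.09), Nid2 (-0.96), Lama4 (-0.91), Lamb2 (-0.69), Agrn (-0.62) and Lamb1 (-0.49). Thbs1, thrombospondin 1, fell from a range of 2067 to 7170.0 CPM (median 3297) to one of 360.4 to 1095 CPM (median 648) (log2 fold change -2.43 ± 0.35, adjusted p = 0.000257). Tnc, tenascin C, ranged from 12 to 327 CPM (median 47.9) at 8 weeks and from 5.13 to 30.3 CPM (median 7.55) at 34 weeks (log2 fold change -2.44 ± 0.65, adjusted p = 0.00791), with overlap, and an 8-week mouse stood far above its group. Besides Spp1 the rises held Dpt, which encodes dermatopontin and ranged from 181 to 309 CPM (median 202) at 8 weeks and from 529 to 1307 CPM (median 625) at 34 weeks (log2 fold change 1.79 ± 0.24, adjusted p = 0.000203), and it was still higher with the macrophage covariate (2.95, adjusted p = 0.0243). Lum (1.64), Ecm1 (1.60), Tgfbi (1.51), Fbln1 (1.41), Pcolce (1.40), Emilin1 (1.19) and Dcn (0.57) rose too. Fn1, fibronectin (log2 fold change -0.38 ± 0.34, adjusted p = 0.371), and Eln, elastin (log2 fold change -0.52 ± 0.36, adjusted p = 0.258), were not called.

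**Figure D4:**
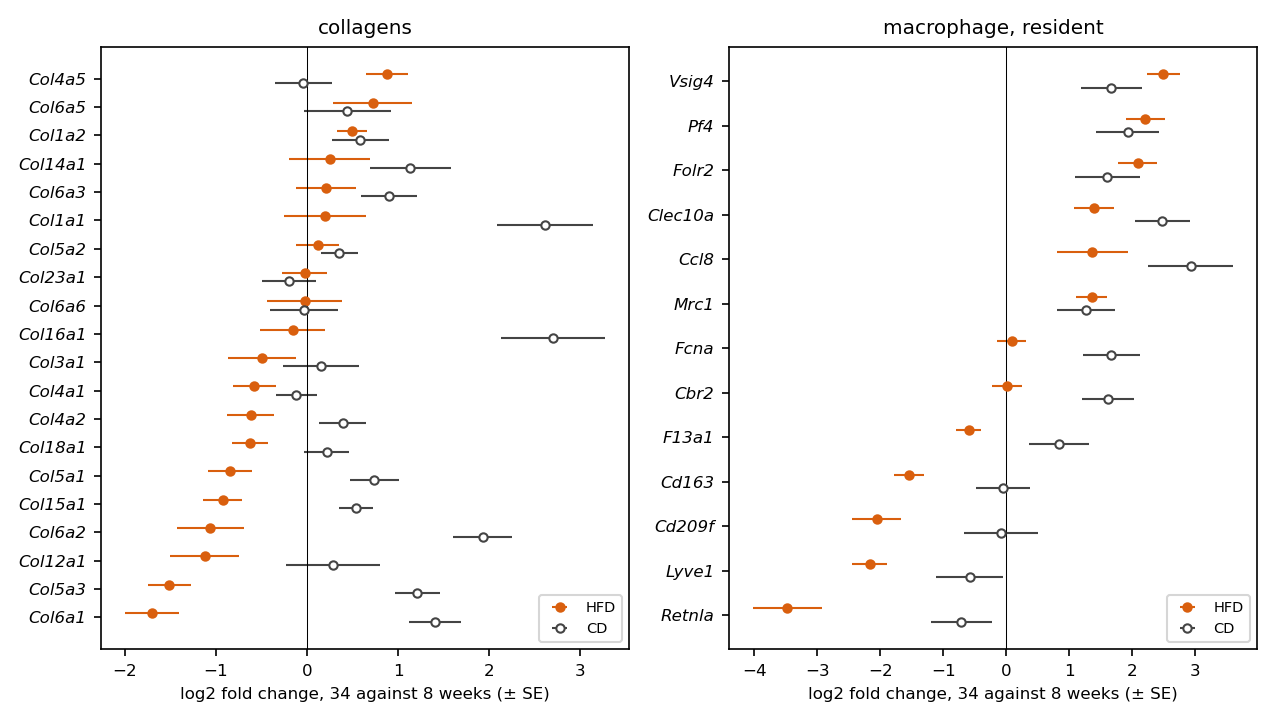
Log2 fold change ± SE from 8 to 34 weeks of the 20 collagen genes (left) and 13 resident macrophage genes (right) tested, in HFD (orange, 6 against 6 mice) and CD mice (open, 8 against 6 mice). The SE of HFD changes is from the HFD mice alone, and that of CD changes from the fit of both diets. Col6a1, Col5a3 and Col6a2 lie below 0 on HFD and above 0 on CD, and Retnla lies lowest on HFD at -3.47.

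Matrix remodeling enzymes rose for 8 and fell for 7 of 27, against 30.2% higher and 17.7% lower over all genes tested. For 3 of the 8, Mmp11 included, the filter was passed only through the 34-week values, which fixed their direction. Mmp12, macrophage elastase, ranged from 84.1 to 411 CPM (median 198) at 8 weeks and from 677 to 2529 CPM (median 1341) at 34 weeks (log2 fold change 2.76 ± 0.45, adjusted p = 0.000449). Mmp2, gelatinase A (log2 fold change 1.47 ± 0.45, adjusted p = 0.0167), and Mmp11, stromelysin 3 (log2 fold change 1.18 ± 0.24, adjusted p = 0.00182), rose with overlap, and Timp1, a metalloproteinase inhibitor, was not called (log2 fold change -0.08 ± 0.34, adjusted p = 0.863). Adamts1, an aggrecanase (log2 fold change -1.71 ± 0.29, adjusted p = 0.000591), Timp4 (-1.43) and Serpinh1, the collagen chaperone HSP47 (-1.15), fell. Of 15 integrin genes 7 rose and 2 fell (median 0.84), led by the leukocyte genes Itgax, Itgb2 (2.61), Itgad (2.57) and Itgam (1.81). Itga1 (log2 fold change -0.86 ± 0.15, adjusted p = 0.000598) and Itga6 (-0.68), which pair with ITGB1 and ITGB4 to bind collagen and laminin, fell. Itga5, the fibronectin receptor chain, was not called (log2 fold change 0.84 ± 0.41, adjusted p = 0.109) except without 34-week mouse 1 (adjusted p = 0.0407).

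In the TGF-beta pathway 7 of 22 genes rose and 6 fell (median -0.09), and 4 and 8 after TMM. Over all genes tested 30.2% were higher and 17.7% lower on CPM. Tgfb1, the main ligand, ranged from 32.7 to 58.9 CPM (median 43.5) at 8 weeks and from 58.8 to 191 CPM (median 147) at 34 weeks (log2 fold change 1.47 ± 0.28, adjusted p = 0.001), with 5 of 6 older mice above the 8-week range. Gdf3, a ligand of the same superfamily, ranged from 0.602 to 3.75 CPM (median 2.58) at 8 weeks and from 16.1 to 66.6 CPM (median 33.1) at 34 weeks (log2 fold change 3.36 ± 0.34, adjusted p = 8.8e-05). For 2 of the 7 rises, Gdf3 included, the filter was passed only through the 34-week values, which fixed their direction. The target and inhibitor Smad7 ranged from 85.1 to 186 CPM (median 102) at 8 weeks and from 19.2 to 55.6 CPM (median 33.1) at 34 weeks (log2 fold change -1.84 ± 0.26, adjusted p = 0.000254). Of 43 actin and adhesion genes 22 rose and 9 fell (median 0.53); the rises were led by the leukocyte genes Capg (log2 fold change 2.82 ± 0.42, adjusted p = 0.000302), Lcp1 (2.63), Fermt3 (2.42) and Coro1a (2.22). Acta2, smooth muscle actin, ranged from 101 to 366 CPM (median 183) at 8 weeks and from 52 to 172 CPM (median 62.2) at 34 weeks (log2 fold change -1.28 ± 0.36, adjusted p = 0.0106), with 4 of 6 older mice below the 8-week range. It is also 1 of 4 mural cell genes of 12 tested that fell, with Mylk (-1.13), Tagln (-1.13) and Mcam (-0.99). Mural cell genes summed to 1108 to 1475 CPM at 8 weeks and 515 to 967 CPM at 34 weeks, without overlap. Of 21 genes of progenitors and fibroblasts 5 rose and 1 fell (median 0.45), and 2 and 2 after TMM; Pdgfra (0.87) and Dpp4 (-0.66) were not called, and F3, tissue factor, fell (log2 fold change -1.35 ± 0.19, adjusted p = 0.000232).

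Stress genes had no common direction. In the unfolded protein response 6 of 25 rose and 3 fell (median 0.10, -0.03 after TMM). Sdf2l1, an endoplasmic reticulum cochaperone, rose (log2 fold change 1.02 ± 0.23, adjusted p = 0.00303), while Chac1, a glutathione-degrading target of ATF4, ranged from 68.5 to 144 CPM (median 80.2) at 8 weeks and from 7.01 to 27.2 CPM (median 16.7) at 34 weeks (log2 fold change -2.51 ± 0.28, adjusted p = 0.000106). Ddit3, which encodes CHOP, ranged from 30.2 to 40.4 CPM (median 32.7) at 8 weeks and from 30.6 to 38.2 CPM (median 33.4) at 34 weeks, overlapped throughout and gave no call (log2 fold change 0.00 ± 0.09, adjusted p = 0.996). Cytosolic heat shock genes had 8 of 15 lower and none higher (median -0.48); Hspa1b, whose reads can be shared with the near-identical Hspa1a, changed most (log2 fold change -2.26 ± 0.48, adjusted p = 0.00218). Of 17 hypoxia and angiogenic genes 7 fell and 5 rose, with Vegfa (-0.93) and Adm (log2 fold change -1.22 ± 0.27, adjusted p = 0.003) lower and Angpt2 higher (log2 fold change 1.66 ± 0.40, adjusted p = 0.00465). Of 30 antioxidant genes 8 fell and 5 rose, and 12 and 2 after TMM; Gpx3, the secreted glutathione peroxidase, ranged from 159 to 931 CPM (median 504) at 8 weeks and from 76.2 to 123 CPM (median 101) at 34 weeks (log2 fold change -2.04 ± 0.41, adjusted p = 0.00161) and Prdx1, a peroxiredoxin, ranged from 563 to 671 CPM (median 629) at 8 weeks and from 961 to 1842 CPM (median 1246) at 34 weeks (log2 fold change 1.03 ± 0.14, adjusted p = 0.000224).

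Immediate early genes rose for 6 and fell for 2 of 23, with the shear-responsive factor Klf2 highest (log2 fold change 1.86 ± 0.37, adjusted p = 0.00134) and Myc lowest (log2 fold change -1.44 ± 0.26, adjusted p = 0.000802); their median of 0.06 was -0.07 after TMM, with 4 higher and 3 lower. Of 17 clock genes 4 rose and 7 fell, and Per1 (log2 fold change 1.43 ± 0.30, adjusted p = 0.00209) and Nfil3 (log2 fold change -0.94 ± 0.19, adjusted p = 0.00145) marked the ends. Per1 and Per2 (-0.86) therefore moved in opposite directions, and the hour of harvest was not analysed here. Of 17 genes of cell cycle arrest and the p53 response 6 rose and 5 fell; Gdf15, a stress-induced cytokine, ranged from 16.4 to 64.8 CPM (median 31.2) at 8 weeks and from 66.4 to 147 CPM (median 134) at 34 weeks (log2 fold change 1.85 ± 0.32, adjusted p = 0.000577). Eda2r, a p53 target receptor, fell (log2 fold change -0.96 ± 0.33, adjusted p = 0.0285), a call lost without any 1 of 5 mice (adjusted p 0.00428 to 0.0663). Eda2r passed the filter only through its 8-week values, which fixed its direction. Over all genes tested 30.2% were higher and 17.7% lower, so the counts of immediate early, clock and arrest genes are descriptions.

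The same interval on CD gave 4085 higher (39.0%) and 2377 lower genes (22.7%) among the 10479. CD changes and differences between diets came from 1 fit of both diets at 8 and 34 weeks (22 residual degrees of freedom). HFD changes came from the 12 HFD mice alone (10 degrees of freedom). The tests thus differ in power, and counts and standard errors of the 2 diets are not directly comparable. Of the 5024 genes called on HFD 3401 were called on CD too, 3165 in the same direction and 236 in the opposite. The difference between the changes, HFD minus CD, passed the limma test for 998 genes in the positive (9.52%) and 1280 in the negative direction (12.2%). Core macrophage genes rose on both diets, 19 of 20 on HFD and 18 on CD, with medians of 2.65 and 2.56, and the change differed for 1 of the 20, Cd14, the lipopolysaccharide co-receptor (2.03 ± 0.39 on HFD, -0.30 ± 0.47 on CD, difference 2.33 ± 0.69, adjusted p = 0.0184). Lysosomal medians were 1.09 and 0.81, and 7 of 46 changes differed.

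Fat synthesis and collagen genes were among those whose change differed between the diets. Over all genes tested 39.0% were higher on CD, and 12.2% differed in the negative direction. Lipogenic genes fell on HFD (median -0.94) and rose on CD (0.65, 10 of 19 called higher and 2 lower), and 12 of 19 differed, all in the negative direction. Among the named genes the most negative difference was that of Acss2 (-1.44 ± 0.30 on HFD, 2.09 ± 0.43 on CD, difference -3.53 ± 0.63, adjusted p = 0.000723). Elovl6 followed (-1.03 ± 0.31 and 2.34 ± 0.44, difference -3.37 ± 0.65, adjusted p = 0.00121), and then Col6a1 (-1.70 ± 0.29 and 1.40 ± 0.29, difference -3.11 ± 0.42, adjusted p = 9.09e-05). Of 20 collagen genes 9 rose on CD (median 0.49), near the share of all genes, and 7 differed, all negative. Col6a2 (difference -2.99 ± 0.48, adjusted p = 0.000312), Col5a3 (difference -2.72 ± 0.37, adjusted p = 9.09e-05), Col1a1 (difference -2.42 ± 0.77, adjusted p = 0.0279) and Col15a1 (difference -1.46 ± 0.28, adjusted p = 0.00114) were among them. Cholesterol synthesis had 14 of 20 genes higher on CD (median 0.87) and 1 on HFD, and 9 differed in the negative and 1 in the positive direction. Complex I genes, with no call on HFD, had 30 of 37 higher on CD, and 12 differed, all negative.

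The largest positive differences named here were picked among genes called on HFD, so a call on HFD was set by the choice. Gnal, the stimulatory G protein subunit first found in olfactory neurons, ranged from 5.21 to 12.4 CPM (median 7.62) at 8 weeks and from 32.8 to 108 CPM (median 49.6) at 34 weeks, and changed by 2.56 ± 0.30 on HFD and -0.90 ± 0.49 on CD (difference 3.47 ± 0.72, adjusted p = 0.00202). C7, a terminal complement component, changed by 1.23 ± 0.41 and -1.73 ± 0.36 (difference 2.96 ± 0.53, adjusted p = 0.00078); its HFD call was lost without any 1 of 4 mice (adjusted p 0.0152 to 0.059). Tmem132b ranged from 0.194 to 0.517 CPM (median 0.411) at 8 weeks and from 5.39 to 35.6 CPM (median 17.6) at 34 weeks and changed by 3.66 ± 0.32 and 0.88 ± 0.42 (difference 2.78 ± 0.62, adjusted p = 0.00329), and like Cma1 it passed the filter only through its 34-week HFD values. Cma1 was among the positive differences (difference 2.46 ± 0.74, adjusted p = 0.0201), and Retnla (difference -2.76 ± 0.70, adjusted p = 0.00757), Orm3 (difference -2.96 ± 0.57, adjusted p = 0.00118) and Adrb3 (difference -2.10 ± 0.46, adjusted p = 0.00309) among the negative. For Fam110c the changes on HFD and CD were -2.63 ± 0.28 and -2.49 ± 0.31 (difference -0.13 ± 0.45, adjusted p = 0.861), and for Fosl1 -2.58 ± 0.40 and -3.33 ± 0.48 (difference 0.75 ± 0.70, adjusted p = 0.463), so neither difference passed the test.

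**Figure D5:**
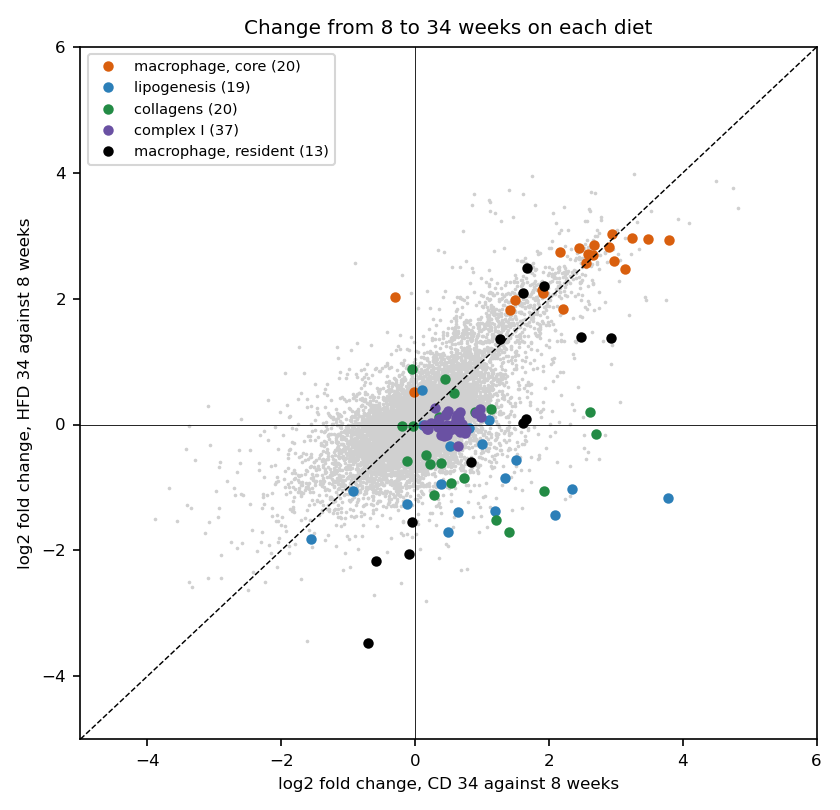
Log2 fold change from 8 to 34 weeks on CD (x axis) and HFD (y axis) for 10479 genes (grey) and 5 gene lists (colours); the dashed line marks equal change. Core macrophage genes lie near the line (medians 2.56 on CD and 2.65 on HFD), while lipogenesis and collagen genes lie below it.

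For some of these genes the 20-week median lay outside the medians of the 2 end points, given here as values without a test. Itga5 ranged from 306 to 425 CPM (median 389.7) at 20 weeks, above all mice at 8 weeks (27 to 106 CPM) and 34 weeks (46.6 to 236 CPM). C7 at 20 weeks, from 33.5 to 56.7 CPM (median 35.6), likewise stood above every mouse at 8 and 34 weeks, where its maxima were 10.1 and 30.7 CPM. G0s2 ranged from 11.9 to 35.1 CPM (median 18.2) at 20 weeks, below all 34-week mice (77.9 CPM and above) and overlapping the 8-week mice. Timp1 ranged from 11.7 to 38.6 CPM (median 26.6) at 20 weeks, against maxima of 16.2 CPM at 8 weeks and 11.3 CPM at 34 weeks.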

How the data were processed

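RNA from floating perigonadal adipocytes was sequenced as polyA-selected, stranded libraries. Per the labels, the authors aligned reads with STAR (versions 2.5 and 2.5.2b are listed), counted them with featureCounts (Subread 1.5.1) and deposited 1 table of CPM values (reads of a gene scaled to a fixed library total), with 1 column for each of 38 mice after merging 3 technical libraries. The builds named are GRCm38 and mm10. All CPM values gave whole reads within 0.1 read, so depth was recovered. Of 29132 genes listed, 10479 had a mean log2(CPM + 1), pseudocount 1, above 2 over the 12 HFD mice and were tested with limma 3.58.1 (R 4.3.3), with Benjamini-Hochberg adjustment at 0.05. CD mice and the difference between diets were fitted on the same genes. Nothing in the labels pairs mice, and p-values measure the spread between mice. Named were the 6 largest rises and 6 largest falls without overlap at 10 CPM or more. Also named were 17 genes taken from the study and the called extremes of 47 gene lists. The 6 largest differences between diets, picked among genes called on HFD, completed the 91 genes. Genes counted in their lists but left out by name are not reported here. Inhba was below the filter, and 19 list symbols, Ctgf among them, were not analysed here. The comparison, the lists and the 17 promoter motifs were chosen with earlier results of these data known. Alternatives were TMM and median-of-ratios scaling, edgeR 4.0.16 and DESeq2 1.42.0 on recovered reads, other filters and pseudocounts, weights, a macrophage covariate, thinned reads and each mouse left out. Scripts were tested on simulated data.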

Additional observations from a re-analysis of the deposited data

Results flagged for a closer look

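A mouse far from the other 5 of its group, by a rule that chance meets in about 1 in 20 groups, was found in 12 of 182 groups checked. At 8 weeks the highest mouse stood apart for Cd72 (10.3 CPM), Retnla (673 CPM), Tnc (327 CPM), Gdf15 (64.8 CPM) and Cma1 (0.668 CPM). At 34 weeks it stood apart for Spp1 (1025 CPM), Agt (37.2 CPM), Cidea (25.2 CPM), Rps27a (569 CPM), Csf1 (91 CPM), Klf2 (304 CPM) and Lyve1 (14.7 CPM). The calls of these 12 genes held with each of the 12 mice left out.

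The change from 8 to 34 weeks differed between HFD and CD mice for 23 of the 91 named genes by the limma test of the difference itself. Acss2, Elovl6, Col6a1, Gnal, C7 and Tmem132b were picked for their large differences, so their place among the 23 was set by the choice. Among all 10479 genes tested, the difference passed for 998 in the positive (9.52%) and 1280 in the negative direction (12.2%). The count of 23 is therefore only a description of the named genes. In the fat synthesis and lipolysis genes the difference (HFD minus CD, log2) was -3.53 for Acss2, -3.37 for Elovl6, -2.10 for Adrb3 and -1.67 for G0s2. The matrix genes Col6a1 (-3.11) and Col1a1 (-2.42) were negative and Mmp11 positive (1.47). Among macrophage, mast cell, B cell and acute phase genes the values were -2.76 for Retnla, -2.96 for Orm3, -1.83 for Agt, -1.94 for Ighm, 2.46 for Cma1 and 2.96 for C7. Metabolic genes were Pmvk (-1.73), Idh3a (-1.14), Gaa (-0.69), Srebf2 (0.52), Prdx1 (0.70) and Akt1 (0.74). The remaining genes were Eda2r (-1.73), Cadm1 (2.33), Tmem132b (2.78) and Gnal (3.47).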

How the results depend on the processing

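Age, time on diet and harvest cohort moved together, 6 mice per group limit the precision, and the depth of the groups did not overlap, so genes near 1 CPM rest on few reads. The number of changed genes (5024 on CPM) was 4935 to 5752 under all other settings but those that follow. With the mouse number as a block it was 4587 (2891 higher, 1696 lower). The numbers did not pair the mice, since deviations of same-numbered mice correlated between -0.274 and 0.324, and Pearson's r here is across genes. With the core macrophage mean as a covariate 10 genes were called, 7 higher and 3 lower, and of the 5024 genes 2984 kept their sign; the covariate had no values common to both groups. A 2-fold requirement left 1425 genes, 1069 higher and 356 lower. The count of differences between diets was 2278, and 4008 with array weights. Leaving out each mouse in turn gave 4292 to 5284 changed genes (2764 to 3253 higher, 1527 to 2031 lower), 6047 to 6505 in CD mice and 1649 to 3010 differences between diets. Of 91 named genes 12 changed their call without some mouse: Lipe, Ighm, Pmvk, Fads1, Eda2r, C7, Ppara and Rpl24 lost it, and Adipoq, Col4a1, Itga5 and Mgll gained it.

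With the macrophage covariate 12 named genes kept their call or lack of call, 58 lost significance and 21 called genes changed sign; the cause was not tested. The signs that changed to positive were those of Lipe (0.53), Pnpla2 (0.64), Acacb (0.31), Ppara (0.55), Aldh6a1 (0.67), Mrpl38 (0.084), Csf1 (0.44), Adm (0.41) and Gpx3 (0.19). Those that changed to negative were Tgfb1 (-0.46), Mmp2 (-1.17), Fads1 (-0.13), Akt1 (-0.053), Col4a5 (-0.14), Capg (-0.27), H2-DMb1 (-0.73), Oas1a (-0.025), Sdf2l1 (-0.51), Tk1 (-0.25), Angpt2 (-0.54) and Wdfy4 (-0.23). The other settings left 84 to 91 named genes on their side of the threshold, and no called gene changed sign. Of the genes not called, 5 changed sign with the covariate (Adipoq, Col1a1, Col6a3, Itga5 and Mgll), and Ddit3, Col1a1, Col6a3 or Timp1 did under some other settings.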

Other observations

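A few genes outside the lists stood out after their values were seen, since they were called both on CPM and with the core macrophage mean as a covariate. Slit2, which encodes a guidance ligand of ROBO receptors, ranged from 2.38 to 2.94 CPM (median 2.62) at 8 weeks and from 12.7 to 22.3 CPM (median 19.6) at 34 weeks, without overlap (log2 fold change 2.38 ± 0.15, adjusted p = 2.48e-06 by limma). On CD its change was -0.19 ± 0.37 (difference 2.57 ± 0.55, adjusted p = 0.00248). Slit2 passed the filter only through its 34-week values, which fixed the direction of its change. Esr1, the estrogen receptor alpha gene, ranged from 43.2 to 54.6 CPM (median 53.9) at 8 weeks and from 7.28 to 13 CPM (median 9.7) at 34 weeks, without overlap (log2 fold change -2.26 ± 0.14, adjusted p = 2.48e-06 by limma). Its change on CD was -0.98 ± 0.19 (difference -1.28 ± 0.27, adjusted p = 0.0026).

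Gldc, the glycine decarboxylase of the mitochondrial glycine cleavage system, ranged from 0.775 to 1.62 CPM (median 1.39) at 8 weeks and from 8.18 to 18.3 CPM (median 11.4) at 34 weeks (log2 fold change 2.43 ± 0.18, adjusted p = 1.95e-05 by limma). Mgl2, a C-type lectin of macrophages and dendritic cells, ranged from 17.6 to 60.3 CPM (median 30.3) at 8 weeks and from 3.21 to 11.7 CPM (median 6.91) at 34 weeks (log2 fold change -2.11 ± 0.34, adjusted p = 0.0004 by limma), opposite in direction to its neighbour in function Clec10a (1.40). Vat1l ranged from 1.34 to 2.66 CPM (median 1.61) at 8 weeks and from 6.79 to 17.8 CPM (median 9.72) at 34 weeks (log2 fold change 2.09 ± 0.23, adjusted p = 9.22e-05 by limma). Gldc and Vat1l likewise passed the filter only through their 34-week values, so their direction was fixed by it. Cd163, Dpt and Tmem132b were the other genes called in both fits, and Ajuba and Pcsk6 were called with the covariate alone.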
